A study of Mus musculus with 20 samples.

Results

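The comparison described here is between macrophages treated with RNY1-/- ProteinFx and macrophages treated with RNY1+/+ ProteinFx, 4 libraries each. Its members are the genes with a mean of at least 3 CPM (counts scaled to the library total) over these 8 libraries, which were 10473 of the 78317 genes listed and of the 28699 with a count in any of the 8. Of these, 10469 also passed edgeR's filter on low counts and were tested. The limit fell between Gstt2, at a mean of 2.9985 CPM, and Gm4076, at 3.0012 CPM. The full study has 20 libraries of mouse bone marrow-derived macrophages (BMDMs) in 5 treatments of 4: PBS, and the vesicle-enriched (EVFx) or protein-enriched (ProteinFx) fraction of airway lavage fluid from either donor genotype. RNY1 is a small noncoding Y RNA, and the comparison asks how macrophages respond to airway fluid from donors with and without it.

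All BMDMs were wild type and came from the marrow of female C57BL/6J mice. They were used on day 7 of culture, at 200000 cells per well, after 3 washes and a change to medium without serum. Genotype here is that of the mice that gave the lavage fluid. Donors of both genotypes had ovalbumin (OVA)-induced airway inflammation, and the RNY1-/- donors were CRISPR knockouts in the whole body. The knockout mice came from GemPharmatech, and all other mice of the study were wild-type C57BL/6J from JAX. Littermate controls are not stated, so donor genotype may not be separable from the source of the mice. Both ProteinFx were pooled size exclusion chromatography fractions of the lavage fluid, stored for 5 days at 4°C and added at an equal protein concentration of 0.75 µg/µL, while the PBS wells received no airway fluid. It is not stated in the labels or methods if the 4 libraries in each group represent separate donors, fraction preparations or wells, so p-values measure the spread between these libraries only, which may be technical. The duration of treatment is not given in the sources used here.

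Interferon-stimulated genes are switched on when type I interferons or interferon-γ signal from their receptors to the nucleus, and their products block viral replication at several steps. Macrophages that sense microbial or damaged-cell products also release NF-kB, which drives cytokines, chemokines and the NF-kB inhibitors that later end the response. Resting BMDMs instead express scavenger, clearance and lipid-handling genes, many of which fall as the cells are activated.

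Proximal promoters of 5 genes are shown because the groups described below differ in the control elements known for them: Rsad2 and Ifit1 (antiviral effectors), Gbp5 (an interferon-γ-inducible GTPase), and Cxcl10 and Cxcl9, a pair of neighbouring chemokine genes that moved in opposite directions. The sequences are from RefSeq for GRCm38.p6, a different build from the GRCm39 of the counts, and run 5′ to 3′ in the direction of transcription from 250 bases before to 50 bases after the gene start. Rsad2 lies on the minus strand at chr12:26456403-26456702, Ifit1 on the plus strand at chr19:34640639-34640938, Gbp5 on the plus strand at chr3:142496684-142496983, and Cxcl10 and Cxcl9 on the minus strand at chr5:92348840-92349139 and chr5:92328030-92328329. Capitals mark matches, on either strand, to 4 motifs: the core of the interferon-stimulated response element (ISRE; GAAA, any 2 bases, then GAAA), the gamma-activated site (GAS; TTC, any 3 bases, then GAA), the AP-1 site (TGANTCA) and the kappa-B site of NF-kB.
Rsad2: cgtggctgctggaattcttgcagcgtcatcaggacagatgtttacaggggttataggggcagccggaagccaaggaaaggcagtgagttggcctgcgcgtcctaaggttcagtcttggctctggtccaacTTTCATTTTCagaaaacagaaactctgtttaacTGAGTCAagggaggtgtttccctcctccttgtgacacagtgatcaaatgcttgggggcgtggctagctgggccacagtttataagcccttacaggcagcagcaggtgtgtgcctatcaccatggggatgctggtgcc
Ifit1: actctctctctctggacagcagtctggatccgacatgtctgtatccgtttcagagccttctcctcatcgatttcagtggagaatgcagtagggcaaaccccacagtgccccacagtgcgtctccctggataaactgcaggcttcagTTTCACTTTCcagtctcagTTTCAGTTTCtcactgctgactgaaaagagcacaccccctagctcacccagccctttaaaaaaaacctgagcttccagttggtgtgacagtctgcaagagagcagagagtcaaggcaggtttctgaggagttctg
Gbp5: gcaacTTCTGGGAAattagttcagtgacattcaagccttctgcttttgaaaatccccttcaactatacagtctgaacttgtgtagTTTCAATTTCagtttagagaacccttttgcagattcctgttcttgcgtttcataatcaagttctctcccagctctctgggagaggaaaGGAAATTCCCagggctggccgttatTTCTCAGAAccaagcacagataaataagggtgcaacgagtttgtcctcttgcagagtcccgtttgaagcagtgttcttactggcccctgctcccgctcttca
Cxcl10: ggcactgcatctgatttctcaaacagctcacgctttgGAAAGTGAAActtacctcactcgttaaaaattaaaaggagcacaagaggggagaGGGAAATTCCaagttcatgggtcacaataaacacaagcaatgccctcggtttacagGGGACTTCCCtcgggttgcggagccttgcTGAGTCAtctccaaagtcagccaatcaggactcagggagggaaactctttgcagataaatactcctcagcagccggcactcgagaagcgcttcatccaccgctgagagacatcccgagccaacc
Cxcl9: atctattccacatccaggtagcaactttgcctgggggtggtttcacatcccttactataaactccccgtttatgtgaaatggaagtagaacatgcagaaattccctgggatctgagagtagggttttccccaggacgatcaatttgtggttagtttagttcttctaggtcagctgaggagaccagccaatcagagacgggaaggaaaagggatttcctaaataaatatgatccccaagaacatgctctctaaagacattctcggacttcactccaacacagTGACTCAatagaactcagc
Rsad2 held an ISRE core at -120 to -111 from the start and an AP-1 match at -87 to -81, and Ifit1 held ISRE cores at -104 to -95 and -85 to -76. Gbp5 held an ISRE core at -165 to -156, GAS matches at -245 to -237 and -52 to -44, and a kappa-B match at -77 to -68. Cxcl10 held an ISRE core at -213 to -204, kappa-B matches at -159 to -150 and -103 to -94, and an AP-1 match at -74 to -68. In the Cxcl9 window the only match was an AP-1 site at 32 to 38, after the start. None of the marked matches overlapped another. A match is a description of the letters in these windows and not a site of binding.

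Total counts ranged from 3945372 to 5763532 in RNY1+/+ ProteinFx and from 2510005 to 7149366 in RNY1-/- ProteinFx, so that 3 counts, taken as the floor of detection, stood at 0.42 to 1.2 CPM. The groups did not differ detectably in total count (exact two-sided permutation p = 0.914) or mitochondrial share (4.75% to 5.93%, p = 0.314). The 50 most abundant genes held 29.1% ± 0.411 of counts in RNY1+/+ and 27.6% ± 0.311 in RNY1-/- ProteinFx (SD, n = 4 each, exact permutation p = 0.0286, the smallest that 4 against 4 can give). All 10 macrophage markers passed 3 CPM, and their summed level was 10452 to 11277 CPM in RNY1+/+ and 9847 to 11979 CPM in RNY1-/- ProteinFx. Summed levels were 254 to 376 and 287 to 430 CPM for the 12 neutrophil markers, 411 to 469 and 262 to 569 CPM for the 11 dendritic cell markers (led by Bst2, itself interferon-inducible), and 14.7 to 21.4 and 12.7 to 17.1 CPM for the 8 eosinophil markers, of which Epx and Il5ra were at 0 in all 8 libraries. They were 3.64 to 4.52 and 2.79 to 9.93 CPM for the 16 lymphocyte markers, 11.9 to 30.5 and 7.46 to 19.5 CPM for the 12 lung epithelial markers (8 at 0, Sftpc and Scgb1a1 among them), and 33.7 to 50.7 and 26.3 to 44.2 CPM for the 11 fibroblast and endothelial markers. None of these sums differed detectably between the groups (exact permutation p from 0.171 to 0.543). In bulk RNA, fewer cells of a type and less RNA per cell cannot be told apart. Rny1 itself was below the floor in every library (at most 0.127 CPM), and as the macrophages were wild type and the libraries polyadenylated, it does not check the labels.

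The libraries were not equally alike, and this touches results below. RNY1-/- ProteinFx replicates 1 and 2 resembled each other, as did replicates 3 and 4 (Euclidean distances of log2 CPM from 25.3 to 37.2), while distances across these pairs, 48.1 to 59.4, were as large as those between genotypes, 42.7 to 59.3. Distances within RNY1+/+ ProteinFx were 32.4 to 39.9. RNY1-/- replicates 3 and 4 were also the shallower pair, at 2510005 and 3855450 counts, and with every library thinned to the smallest there were 114 lower and 48 higher DEGs, beside the 122 and 69 given below. The common biological coefficient of variation was 10.6% in RNY1+/+ and 17.6% in RNY1-/- ProteinFx. Some genes also shared a difference between replicates 1 and 2 and replicates 3 and 4 across the series: in 95 of 7551 genes with a mean of at least 10 CPM, all 5 groups separated in this way in the same direction. Over all genes tested the 2 ProteinFx groups did not share it. RNY1+/+ replicates 1 and 4 deviated with the RNY1-/- pair of their own number, but replicates 2 and 3 with the other pair (r from -0.33 to 0.34). What sets the pairs apart was not tested. RNY1+/+ ProteinFx replicate 4 also stood apart among the genes that responded. It was the highest of its group in 95 of the 122 genes called lower in RNY1-/- below (77.9%), against 20.6% of all genes tested. Values without these libraries, or within replicates 1 and 2 or 3 and 4 alone, are given for the counts and genes they touch most; the comparisons within the pairs were chosen after seeing the data.

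At an adjusted p under 0.05, 353 of 10469 genes (3.37%) were lower and 230 (2.2%) higher in RNY1-/- ProteinFx. With a change of more than 2-fold as well, the study's limit for a differentially expressed gene (DEG), 122 genes (1.17%) were lower and 69 (0.659%) higher. The lower DEGs comprised 110 protein-coding genes and 10 lncRNAs, and the higher DEGs 65 and 4. CPM of the 2 groups did not overlap in 114 of the 122 lower and 65 of the 69 higher DEGs; over all genes tested, 4.96% had lower and 9.39% higher values without overlap. The falls were also steeper, with 15 lower and 4 higher DEGs beyond 4-fold. TMM scaling set lower DEGs at 63.9% of the total, but scaling to total counts, which moved the median of all genes from 0.02 to 0.11 on the log2 scale, gave 99 lower and 101 higher (49.5%). When each library was left out in turn, 91 lower and 38 higher DEGs kept an adjusted p under 0.05 in all 8 fits. Without RNY1+/+ replicate 4 alone the DEGs numbered 84 lower and 31 higher, and without RNY1-/- replicates 3 and 4 they numbered 253 and 153. By adjusted p, 162 of 10516 genes were lower and 68 higher without RNY1+/+ replicate 4. The counts were 1547 and 1358 of 10482 without RNY1-/- replicates 3 and 4, and 483 and 386 of 10391 without RNY1-/- replicates 1 and 2. Counts of calls in gene lists under these fits, given below, have these as their background. Within replicates 1 and 2 alone, 119 of the 122 lower and 66 of the 69 higher DEGs passed an adjusted p of 0.05, and within replicates 3 and 4 alone 108 and 39 did, with 122 and 64 in the same direction. Over all genes tested, 2914 of 10565 passed within replicates 1 and 2 and 756 of 10348 within replicates 3 and 4. As the same libraries chose the DEGs, these counts describe the DEGs and are not a replication.

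**Figure D1:**
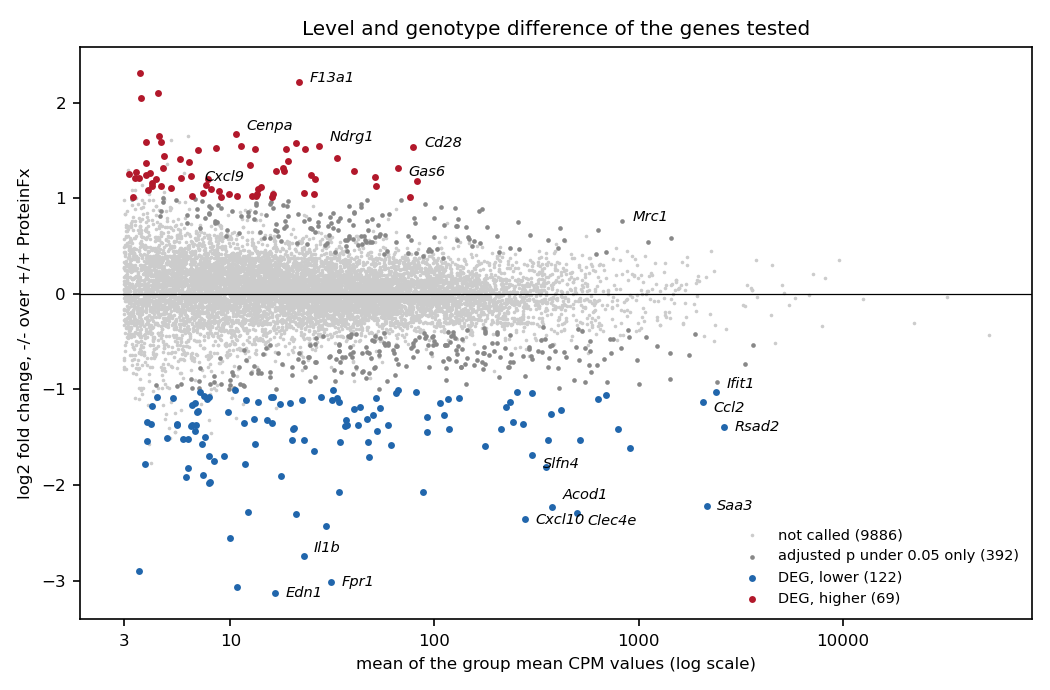
Mean level (CPM over the 8 ProteinFx libraries, log axis) against the log2 fold change, RNY1-/- minus RNY1+/+ ProteinFx, of all 10469 genes tested. The 122 lower and 69 higher DEGs are coloured, 392 genes passed the adjusted p alone, and the lower DEGs reach further from 0 than the higher ones.

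Antiviral interferon-stimulated effectors were lower as a group. Of 74 tested, 34 fell and none rose at an adjusted p under 0.05, 8 of the falls exceeded 2-fold, and the median log2 fold change was -0.40 against 0.02 over all genes; 68 of the 74 had a negative change. CPM did not overlap in 34, all lower. The count of falls was 22 without RNY1+/+ replicate 4, 47 without RNY1-/- replicates 3 and 4 (beside 2 rises), and 40 without RNY1-/- replicates 1 and 2.

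Rsad2 (ENSMUSG00000020641) encodes viperin, a radical SAM enzyme that makes a chain-terminating nucleotide. It stood at 3807, 3565, 3556 and 4002 CPM in the RNY1+/+ ProteinFx libraries and at 1396, 1571, 1667 and 1400 CPM in the RNY1-/- ProteinFx libraries, with 159 to 169 CPM in PBS. Every RNY1-/- library was thus below every RNY1+/+ library and above every PBS library, and the difference was a fall of 2.63-fold (log2 fold change -1.39, SE 0.11, adjusted p = 8.5e-05). Its neighbour Cmpk2, a mitochondrial nucleotide kinase that supplies the same pathway, stood at 1185, 1146, 1028 and 1188 CPM against 369, 443, 550 and 449 CPM, a log2 fold change of -1.41 (SE 0.14, adjusted p = 0.00013). Mx1, a dynamin-like GTPase that traps viral ribonucleoproteins, stood at 513, 537, 466 and 555 CPM against 207, 248, 263 and 200 CPM, 2.4-fold lower (adjusted p = 0.00013). These 3 genes fell to a like extent in all 4 RNY1-/- libraries, with within-pair log2 fold changes of -1.44 and -1.36 for Rsad2, -1.65 and -1.20 for Cmpk2 and -1.33 and -1.20 for Mx1 in replicates 1 and 2 and replicates 3 and 4. Ifit1, which binds viral RNA lacking the cap methyl mark, behaved otherwise. It stood at 3104, 3232, 2573 and 3745 CPM in RNY1+/+ and at 1028, 1108, 2464 and 1941 CPM in RNY1-/- ProteinFx, so that RNY1-/- replicates 3 and 4 lay nearer to RNY1+/+ than replicates 1 and 2 did. Its log2 fold change was -1.03 (SE 0.26, adjusted p = 0.035), and -0.92 without RNY1+/+ replicate 4, where the call was lost (adjusted p = 0.14). It was -1.70 within replicates 1 and 2 and -0.58 within replicates 3 and 4 (adjusted p = 0.06).

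**Figure D2:**
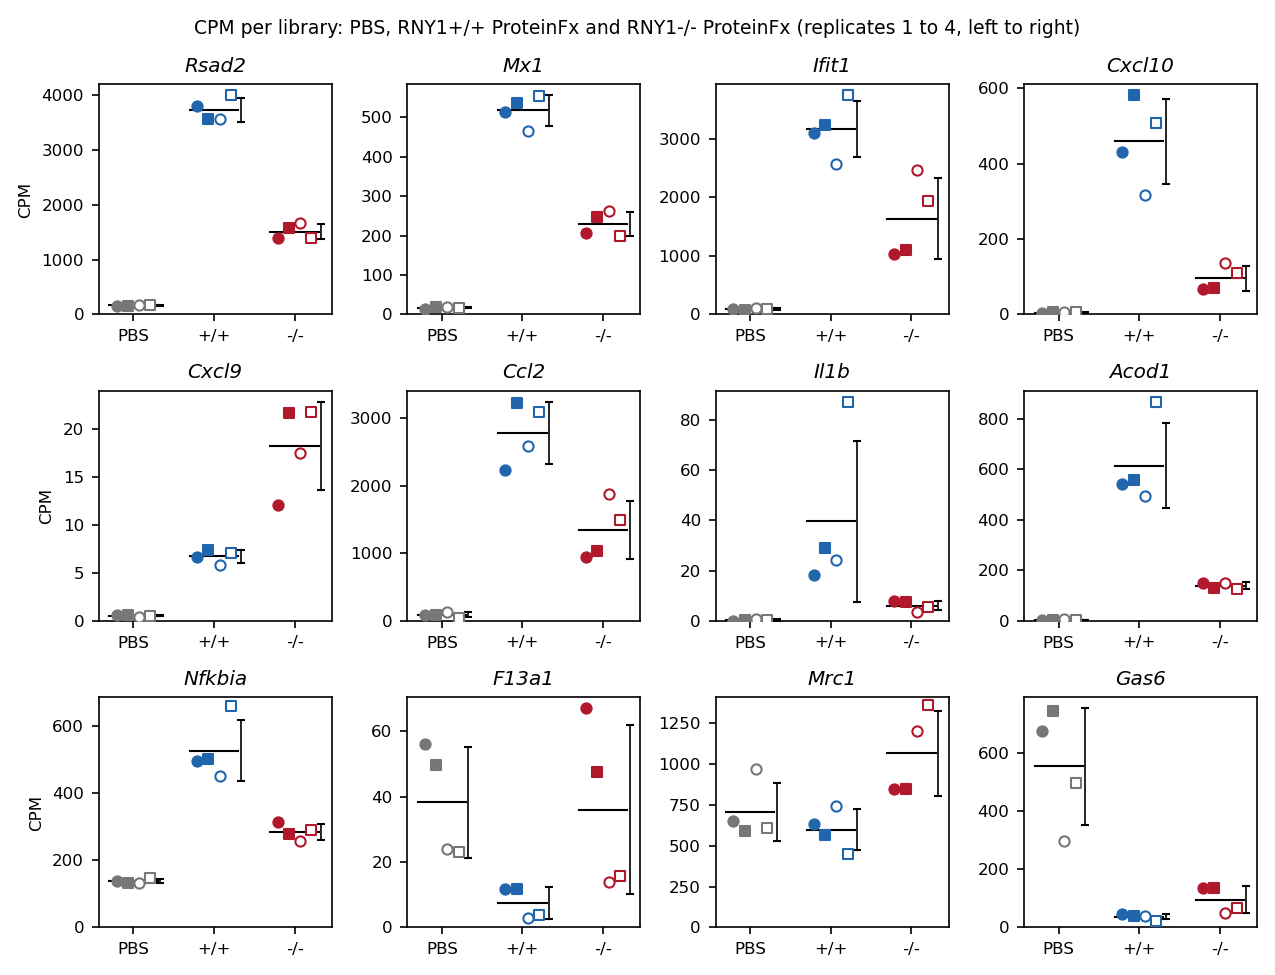
CPM of 12 genes in each PBS, RNY1+/+ ProteinFx and RNY1-/- ProteinFx library (replicates 1 to 4 from left to right, filled for 1 and 2 and open for 3 and 4), with the mean as a line and the SD as a bar (n = 4). The RNY1-/- points of Rsad2 and Mx1 lie together, whereas those of Ifit1 and Gas6 separate into replicates 1 and 2 and replicates 3 and 4.

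Other effectors covered a range of sizes. Slfn4, a myeloid Schlafen protein, averaged 453 ± 118 CPM in RNY1+/+ and 150 ± 60.9 CPM in RNY1-/- ProteinFx, a log2 fold change of -1.69 (adjusted p = 0.0028). Usp18, the ISG15 protease that also damps interferon receptor signalling, averaged 176 ± 9.61 and 87.9 ± 18.1 CPM (-1.09, adjusted p = 0.00035), and Mx2 averaged 21.9 ± 0.595 and 11.6 ± 1.4 CPM (1.99-fold lower, adjusted p = 0.00079). Smaller falls were called for the ubiquitin-like protein Isg15 (-0.82, adjusted p = 0.0028), the oligoadenylate synthetase-like protein Oasl1 (-0.85, adjusted p = 0.0022) and the RNA-binding effector Ifit3 (-0.68, adjusted p = 0.0019). The cytosolic RNA sensors Rigi and Ifih1 averaged 258 ± 12.1 and 339 ± 13.1 CPM in RNY1+/+ against 184 ± 20.1 and 240 ± 48.1 CPM in RNY1-/- ProteinFx, 1.49-fold and 1.5-fold lower (adjusted p = 0.0058 and 0.036). Of these 8 genes only Ifih1 lost its call when a library was left out (adjusted p = 0.13 without RNY1+/+ replicate 4).

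Interferon-γ-inducible GTPases, which attack vacuoles that hold pathogens, moved less evenly. Of 18 tested, 9 fell and 1 rose, with a median log2 fold change of -0.38. The falls numbered 2 without RNY1+/+ replicate 4 and 5 without RNY1+/+ replicate 2 or RNY1-/- replicate 1. Gbp5, which promotes inflammasome assembly, stood at 41.8, 54.9, 30.9 and 49.9 CPM in RNY1+/+ and 29.1, 25, 16.1 and 17.1 CPM in RNY1-/- ProteinFx, without overlap (-1.09, SE 0.20, adjusted p = 0.0074), and was the only DEG of the list. Gbp2 fell from 763 ± 79.2 to 485 ± 93.1 CPM (-0.74, adjusted p = 0.0058). The single rise was Gbp8, at 32.3, 40.1, 25.3 and 22.6 CPM in RNY1+/+ and 65, 57.6, 75.3 and 54.5 CPM in RNY1-/- ProteinFx, again without overlap (0.98, SE 0.17, adjusted p = 0.005). Gbp8 and Gbp2 belong to a family of closely related copies, so reads shared between them make single members less certain.

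Of 19 genes of interferon and STAT signalling, 4 fell and none rose, and 2 fell without RNY1+/+ replicate 4 or RNY1-/- replicate 1. Socs3 and Socs1, feedback inhibitors that bind cytokine receptors and JAK kinases, averaged 50.3 ± 18.3 and 9.17 ± 1.16 CPM in RNY1+/+ against 18.3 ± 1.58 and 4.86 ± 0.683 CPM in RNY1-/- ProteinFx (log2 fold changes -1.55 and -0.99, adjusted p = 0.0017 and 0.0089). The kinase Jak2 and the type I interferon receptor chain Ifnar1 were 1.46-fold and 1.39-fold lower (adjusted p = 0.019 and 0.017). Both of these calls were lost without RNY1+/+ replicate 4 (adjusted p = 0.082 and 0.062). Of 26 genes of antigen presentation, 1 fell and 1 rose (median -0.05). The balance turned with the pair of RNY1-/- libraries: 1 fell and 7 rose without replicates 3 and 4, 9 fell and 1 rose without replicates 1 and 2, and none was called without RNY1+/+ replicate 4. The rise was the MHC class II chain H2-Eb1, from 8.44 ± 1.25 to 16 ± 4.79 CPM (0.86, adjusted p = 0.025). It was highest in RNY1-/- replicate 1, at 21.9 CPM, and was not called without that library (adjusted p = 0.085) or without several others.

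Most chemokines were lower, and Cxcl9 went the other way. Of 17 tested, 10 fell and 2 rose at an adjusted p under 0.05, of which 8 and 1 were DEGs, and the median log2 fold change was -0.92. Cxcl10, a ligand of CXCR3 that recruits activated T cells, stood at 430, 581, 318 and 507 CPM in RNY1+/+ ProteinFx and at 66.7, 71.2, 136 and 109 CPM in RNY1-/- ProteinFx, with 2.66 to 5.95 CPM in PBS. The groups were far apart, a fall of 5.12-fold (log2 fold change -2.36, SE 0.25, adjusted p = 0.00019), and the lowest levels were in RNY1-/- replicates 1 and 2. Cxcl9, another CXCR3 ligand and the genomic neighbour of Cxcl10, stood at 6.7, 7.35, 5.78 and 7.11 CPM in RNY1+/+ and at 12.1, 21.7, 17.5 and 21.8 CPM in RNY1-/- ProteinFx. All 4 RNY1-/- values were above all RNY1+/+ values (1.35, SE 0.21, adjusted p = 0.0029), and the opposite directions of Cxcl9 and Cxcl10 held in replicates 1 and 2 (1.17 and -3.00) and in replicates 3 and 4 (1.55 and -1.82). Cxcl11, the remaining CXCR3 ligand, fell from 6.14 ± 2.76 to 0.986 ± 0.762 CPM (-2.90, adjusted p = 0.0035). Its RNY1-/- values of 1.13, 0.559, 1.99 and 0.259 CPM lay at or near the floor, so the size of its fall depends on the prior count.

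Ccl2, the main attractant of CCR2+ monocytes, stood at 2232, 3224, 2594 and 3097 CPM in RNY1+/+ and at 949, 1043, 1876 and 1493 CPM in RNY1-/- ProteinFx, 2.19-fold lower without overlap (adjusted p = 0.0084). Ccl3 and Ccl4, attractants of monocytes and T cells, fell to 143 ± 11.3 and 418 ± 48.9 CPM from 304 ± 43.6 and 841 ± 10.4 CPM (-1.18 and -1.10, adjusted p = 0.00019 and 0.00014). The PBS means of these 2 genes were 168 ± 26.4 and 444 ± 88.2 CPM, so RNY1-/- ProteinFx left them at about the level of PBS. Ccl5, another attractant of T cells, stood at 815, 887, 732 and 1219 CPM against 668, 597, 327 and 285 CPM (-1.06, adjusted p = 0.022), and its call was lost without RNY1+/+ replicate 4 (adjusted p = 0.097). The neutrophil attractants Cxcl2 and Cxcl3, close paralogs, averaged 68.7 ± 28.3 and 19.5 ± 10.2 CPM in RNY1+/+ and 26 ± 7.19 and 4.84 ± 2.56 CPM in RNY1-/- ProteinFx (-1.55 and -2.28, adjusted p = 0.0058 and 0.008). The other rise was Ccl6, from 303 ± 58 to 521 ± 125 CPM, with 719 ± 192 CPM in PBS. It was not called without RNY1+/+ replicate 4 (adjusted p = 0.11) or within replicates 3 and 4 (0.35, adjusted p = 0.2).

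**Figure D3:**
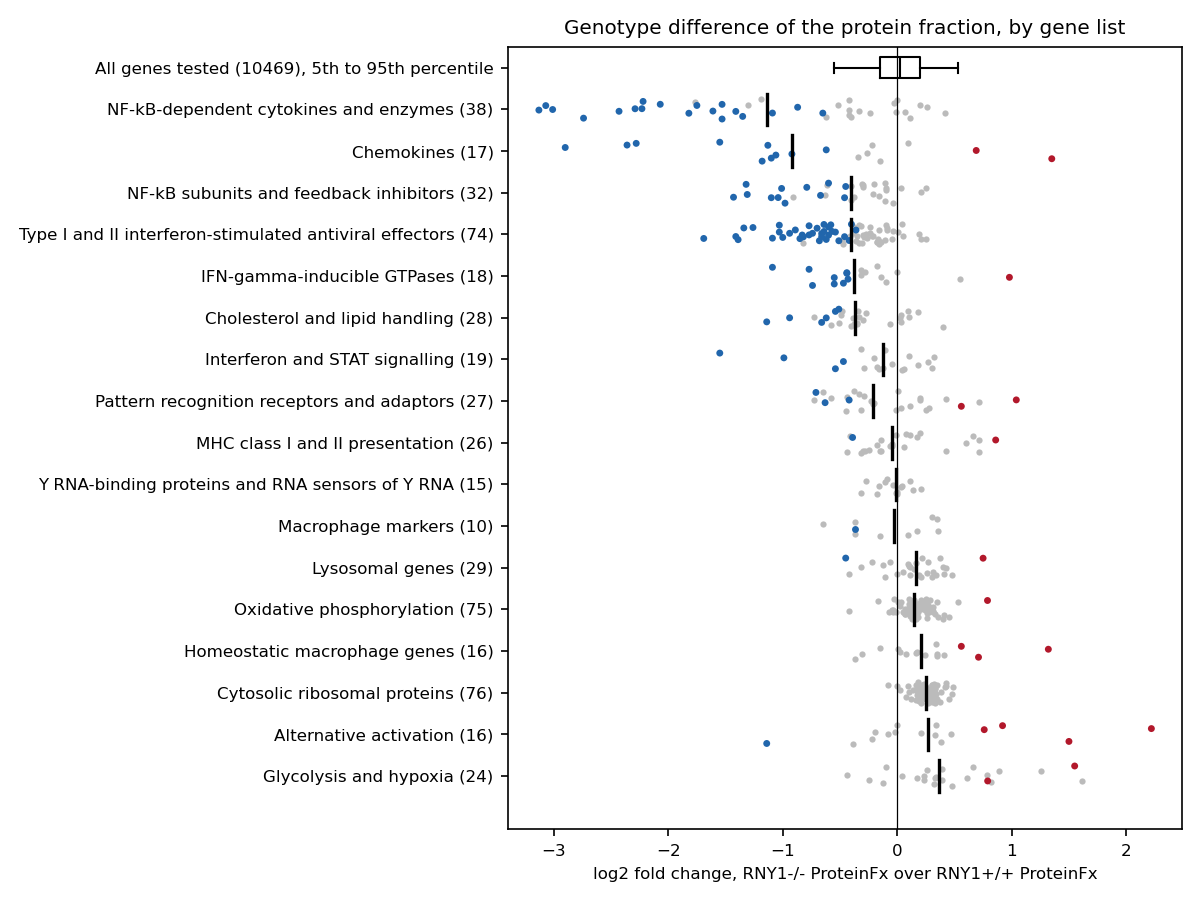
Log2 fold change, RNY1-/- minus RNY1+/+ ProteinFx, of every tested gene in each gene list (dots; blue called lower, red called higher, grey not called at an adjusted p under 0.05), with list medians as black bars and the 5th to 95th percentile of all genes as a box. The medians of NF-kB-dependent cytokines and enzymes (-1.14) and of chemokines (-0.92) lie well below 0, and were both -0.80 without RNY1+/+ replicate 4.

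NF-kB-dependent cytokines and enzymes were lower as a group. Of 38 tested, 19 fell, 17 of them by more than 2-fold, and none rose; the median log2 fold change was -1.14. The count of falls was 15 without RNY1+/+ replicate 4 and 24 without RNY1-/- replicates 3 and 4. Il1b, the inflammasome-processed cytokine, stood at 18.4, 28.9, 24.1 and 87.1 CPM in RNY1+/+ and at 7.75, 7.41, 3.59 and 5.71 CPM in RNY1-/- ProteinFx. RNY1+/+ replicate 4 stood far above its companions, and the log2 fold change of -2.74 (SE 0.47, adjusted p = 0.0048) became -1.95 without it (adjusted p = 0.0011). Il1a, an alarmin that binds the same receptor, showed a like pattern at 89.4, 106, 76.9 and 285 CPM against 42.1, 30.2, 41.8 and 30.3 CPM (-2.07, and -1.42 without that library, adjusted p = 0.0058 and 0.0011). Il1rn, the secreted antagonist of that receptor, fell together with its agonists, from 526 ± 153 to 194 ± 16.4 CPM (-1.53, adjusted p = 0.00035). Tnf was lower in absolute level, at 22.6 ± 6.74 and 9.28 ± 1.87 CPM (-1.35, adjusted p = 0.0031).

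Acod1, which makes itaconate from a citric acid cycle intermediate, had 4 closely spaced RNY1-/- values. It stood at 543, 556, 495 and 867 CPM in RNY1+/+ and at 152, 129, 152 and 127 CPM in RNY1-/- ProteinFx, with a PBS mean of 3.56 ± 1.53 CPM. The fall was 4.69-fold (log2 fold change -2.23, SE 0.18, adjusted p = 8.5e-05) and was present within both pairs (-2.10 and -2.35). The mitochondrial superoxide dismutase Sod2 fell from 1340 ± 331 to 467 ± 63.4 CPM (-1.61, adjusted p = 0.00028), and the acute phase protein Saa3 from 3517 ± 1085 to 811 ± 229 CPM (-2.22, adjusted p = 0.00019). Nos2, the inducible nitric oxide synthase, was low and variable at 10.1, 18, 5.03 and 18 CPM against 7.56, 4.06, 1.59 and 1.82 CPM. Its groups overlapped, and its call (-1.75, adjusted p = 0.032) was lost without RNY1+/+ replicate 4 (adjusted p = 0.15).

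The NF-kB subunits and feedback inhibitors fell as well, in 12 of 32 tested with no rise, 6 of them DEGs (median -0.40). The falls numbered 7 without RNY1+/+ replicate 1 or 4 and 20 without RNY1-/- replicates 3 and 4, where 1547 of all 10482 genes tested fell. Nfkbia encodes IκBα, which holds NF-kB in the cytoplasm and is itself an NF-kB target. It stood at 496, 502, 451 and 660 CPM in RNY1+/+ and at 315, 278, 257 and 291 CPM in RNY1-/- ProteinFx, all above the PBS mean of 138 ± 6.49 CPM (log2 fold change -0.98, SE 0.13, adjusted p = 0.001). Tnfaip3 (A20), which removes activating ubiquitin chains, stood at 128, 170, 134 and 187 CPM against 58, 57.5, 104 and 89.7 CPM (-1.10, adjusted p = 0.0085). As with Ifit1 and Ccl2, RNY1-/- replicates 1 and 2 were the lowest 2 libraries. Nfkbiz, a nuclear IκB needed for secondary response genes, and Irak3, an inhibitory kinase-like adaptor, were 2.69-fold and 2.48-fold lower (adjusted p = 0.00056 for both). Of 27 pattern recognition receptors and adaptors, 3 fell and 2 rose, with 1 fall and no rise without RNY1+/+ replicate 4 and 1 fall without RNY1+/+ replicate 1. Tlr1, which pairs with TLR2 for lipopeptides, fell from 207 ± 22.5 to 135 ± 19.8 CPM (-0.71, adjusted p = 0.0096). Sting1, the cyclic dinucleotide receptor, was the only DEG of that list and rose from 8.78 ± 2.59 to 18.3 ± 6.53 CPM (1.04, adjusted p = 0.028). Its RNY1-/- replicate 3, at 10.4 CPM, lay below RNY1+/+ replicate 3, at 11.8 CPM, and the call was lost without RNY1+/+ replicate 4 (adjusted p = 0.12).

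The 12 largest falls without overlap between groups, among 83 such DEGs averaging 10 CPM or more, ran from 4.21-fold for Lox to 8.75-fold for Edn1. Besides Il1b, Cxcl10, Cxcl3, Acod1 and Saa3, they held receptors and secreted factors. Edn1, the precursor of the vasoconstrictor endothelin, stood at 20.5, 31.4, 20.1 and 44.4 CPM in RNY1+/+ and at 3.4, 2.38, 5.98 and 3.89 CPM in RNY1-/- ProteinFx, and at or under 0.356 CPM in PBS (log2 fold change -3.13, SE 0.33, adjusted p = 0.00019). The formyl peptide receptors Fpr1 and Fpr2, which guide phagocytes to bacteria and damaged mitochondria, fell from 54.9 ± 26.1 to 7.35 ± 1.55 CPM and from 49 ± 16.6 to 9.53 ± 2.03 CPM (-3.01 and -2.43, adjusted p = 0.00019 and 0.00013). Clec4e, the Mincle receptor for mycobacterial glycolipids, stood at 652, 785, 595 and 1234 CPM against 156, 163, 210 and 182 CPM (-2.29, adjusted p = 0.00013). Olr1, the LOX-1 receptor for oxidized lipoprotein, averaged 18.9 ± 12.5 and 2.57 ± 1.02 CPM (-3.07, adjusted p = 0.0027). Lox, which cross-links collagen, and Plpp1, a lipid phosphatase, had log2 fold changes of -2.07 and -2.30 (adjusted p = 0.0019 and 0.0022). These genes were picked for having no overlap between groups, so that trait is not a result. RNY1+/+ replicate 4 was the highest library for every gene named in this paragraph except Cxcl10. Without it their log2 fold changes were -2.81 for Edn1, -2.60 for Fpr1, -2.15 for Fpr2, -2.46 for Olr1, -1.63 for Lox and -1.85 for Plpp1, and these 6 and Clec4e (adjusted p = 9.6e-05) remained called.

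**Figure D4:**
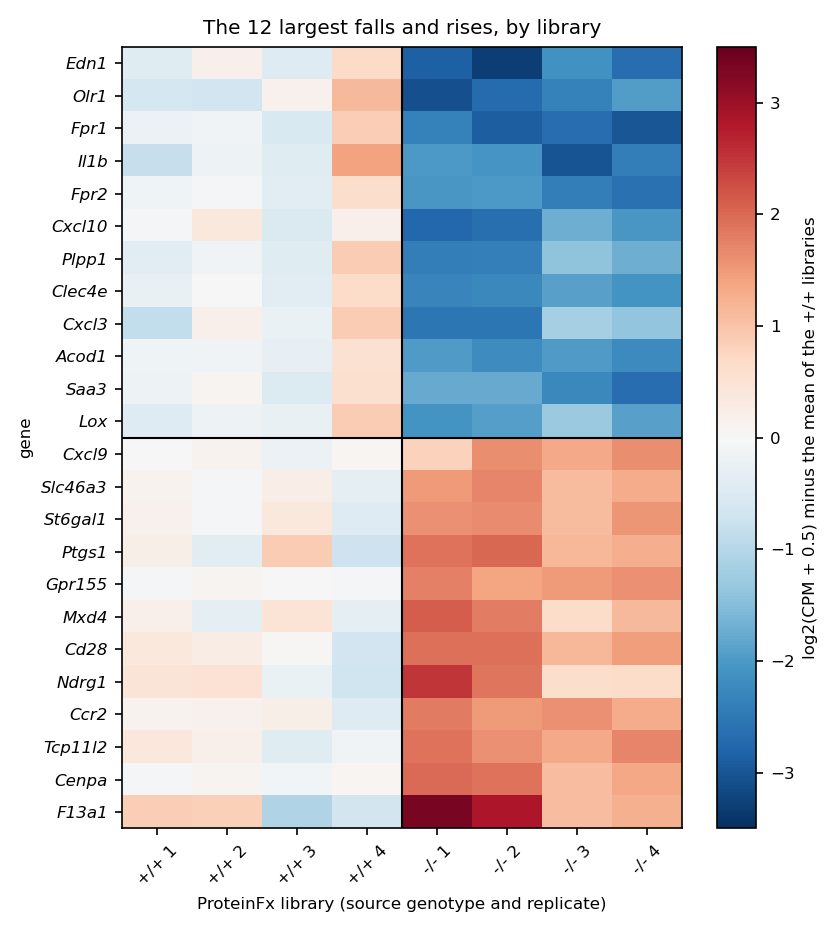
Log2(CPM + 0.5) of the 12 largest falls and 12 largest rises in each of the 8 ProteinFx libraries, relative to the RNY1+/+ ProteinFx mean of each gene. By the rule that picked these genes, all 4 RNY1-/- columns are below 0 for the falls and above 0 for the rises. F13a1, Ndrg1 and Mxd4 stand less far above the RNY1+/+ mean in RNY1-/- replicates 3 and 4. For F13a1 the RNY1+/+ replicates 3 and 4 are lower too, and its change within each pair is nearly the same.

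The rises were smaller: the 12 largest among 32 eligible DEGs ran from 2.54-fold for Cxcl9 to 4.64-fold for F13a1. F13a1, a coagulation factor subunit carried by macrophages, stood at 11.9, 11.7, 2.76 and 3.82 CPM in RNY1+/+ and at 67.1, 47.6, 13.9 and 15.6 CPM in RNY1-/- ProteinFx. In both groups, and in PBS at 56, 49.7, 24.1 and 23.1 CPM, replicates 1 and 2 were above replicates 3 and 4. Its log2 fold change was nearly the same within each pair (2.14 and 2.08, adjusted p = 8.4e-06 and 0.0003). The comparison over all libraries (2.22, SE 0.50, adjusted p = 0.021) lost its call without RNY1+/+ replicate 4 (adjusted p = 0.1). Gpr155, a lysosomal cholesterol sensor, was the most even of the rises, at 10.9, 12.4, 11.6 and 11.1 CPM against 39.9, 30.8, 33.1 and 35.5 CPM (1.51, SE 0.14, adjusted p = 0.00011). Its PBS mean was 41.4 ± 3.94 CPM. Cd28, a costimulatory receptor better known from T cells, stood at 48.8, 44.9, 38.2 and 23.2 CPM against 144, 143, 84.9 and 104 CPM, with a PBS mean of 343 ± 44.9 CPM (1.54, adjusted p = 0.00088). Ccr2, the receptor of Ccl2, rose from 5.53 ± 1.15 to 17.1 ± 2.77 CPM (1.55, adjusted p = 0.00051) where its ligand fell.

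Others of these 12 had PBS levels above both ProteinFx groups. The histone variant gene Cenpa, which marks centromeres, averaged 4.99 ± 0.324 CPM in RNY1+/+, 16.4 ± 4.85 CPM in RNY1-/- ProteinFx and 47.1 ± 2.32 CPM in PBS (1.67, adjusted p = 0.00056). Tcp11l2 averaged 10.1 ± 2.42, 32 ± 5.23 and 50.1 ± 9.69 CPM in the same order (1.58, adjusted p = 0.00033). Slc46a3, a lysosomal transporter, averaged 10.3 ± 1.69, 28.1 ± 4.97 and 72.4 ± 5.88 CPM (1.39, adjusted p = 0.00035). In each of them the RNY1-/- ProteinFx mean lay between that of RNY1+/+ ProteinFx and that of PBS. The sialyltransferase gene St6gal1 showed the same order, at 17.6 ± 4.18, 49.2 ± 7.99 and 86.9 ± 8.7 CPM (1.42, adjusted p = 0.00044). Ndrg1, a hypoxia-responsive gene, and Mxd4, a MYC antagonist, rose by log2 fold changes of 1.55 and 1.52 (adjusted p = 0.032 and 0.008). Both were uneven: Ndrg1 stood at 75.2, 48.3, 19.9 and 20.2 CPM in RNY1-/- ProteinFx, with adjusted p = 0.14 without RNY1+/+ replicate 4, and Mxd4 was not called within replicates 3 and 4 (0.85, adjusted p = 0.098). Ptgs1, the constitutive cyclooxygenase, rose from 9.54 ± 5.13 to 27.8 ± 8.25 CPM and was also not called within replicates 3 and 4 (0.99, adjusted p = 0.089).

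Genes of alternative activation and of resting macrophages included several rises. Of 16 alternative activation genes, 4 rose and 1 fell (2 and 1 DEGs, median 0.27), and of 16 homeostatic genes, 3 rose and none fell (1 DEG, median 0.21). Without RNY1+/+ replicate 4, 2 of the alternative activation genes rose and none fell, and no homeostatic gene was called. Without RNY1-/- replicates 3 and 4, 7 homeostatic genes rose and 3 fell, where 1358 and 1547 of all 10482 genes tested did. Clec10a, a galactose-type lectin, stood at 4.02, 4.31, 3.52 and 2.08 CPM in RNY1+/+ and 13.6, 8.88, 12 and 7.26 CPM in RNY1-/- ProteinFx, without overlap (2.83-fold, adjusted p = 0.0051). Mrc1, the mannose receptor, stood at 633, 565, 746 and 450 CPM against 847, 850, 1202 and 1362 CPM, also without overlap (0.76, adjusted p = 0.034). In PBS its highest library stood at 968 CPM and the next at 649 CPM. The transcription factor Klf4 rose from 25.4 ± 5.7 to 51.1 ± 7.55 CPM (0.92, adjusted p = 0.0067). Its highest PBS library, at 18.2 CPM, lay below both means, so this rise led away from PBS. Gas6, a bridge between dying cells and the receptors that clear them, stood at 44.9, 39.8, 37.9 and 23.8 CPM against 135, 135, 48.2 and 65.4 CPM, all far below its PBS mean of 555 ± 201 CPM (1.32, adjusted p = 0.016). Trem2, a lipid receptor of phagocytes, rose from 94.3 ± 20 to 164 ± 35.3 CPM (0.71, adjusted p = 0.021) and was not called within replicates 3 and 4 (0.44, adjusted p = 0.13). The calls of Mrc1, Gas6 and Trem2 were lost without RNY1+/+ replicate 4 (adjusted p = 0.14, 0.076 and 0.099).

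Metabolic lists changed little or unevenly. Of 28 genes of cholesterol and lipid handling, 6 fell and none rose (median -0.37). They included the stearoyl desaturase Scd1, the only DEG of the list, from 8.94 ± 1.11 to 4.49 ± 1.54 CPM (-1.14, adjusted p = 0.011), and the sterol synthesis enzyme Cyp51 (-0.62, adjusted p = 0.0095). Scd1 and Cyp51 were not called within replicates 3 and 4 (adjusted p = 0.12 and 0.068). Of 19 genes of the NRF2 response, iron and heme, 2 fell and 1 rose, and none was called without RNY1+/+ replicate 4. Hmox1, which degrades heme, fell from 956 ± 152 to 686 ± 55.2 CPM, below its PBS mean of 1162 ± 170 CPM (-0.57, adjusted p = 0.019), and the iron exporter Slc40a1 rose from 12.6 ± 3.57 to 25.7 ± 5.64 CPM (0.97, adjusted p = 0.012). Both calls were lost without RNY1+/+ replicate 4 (adjusted p = 0.067 and 0.062).

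Among 24 genes of glycolysis and hypoxia, 2 rose, including Pdk1, which diverts pyruvate from mitochondria (0.79, adjusted p = 0.019). Without RNY1+/+ replicate 4 none was called, Pdk1 included (adjusted p = 0.07). Without RNY1-/- replicates 3 and 4 there were 17 rises, where 1358 of all 10482 genes tested rose. The list median of 0.36 was 0.76 without RNY1-/- replicates 3 and 4 and -0.16 without RNY1-/- replicates 1 and 2, so its sign rested on the latter pair. None of 76 cytosolic ribosomal protein genes passed the test, although 17 were higher without overlap and the median was 0.25. Within replicates 1 and 2 alone 57 of the 76 were called higher, and within replicates 3 and 4 alone none was. Over all genes tested, 1305 of 10565 were called higher within replicates 1 and 2 and 316 of 10348 within replicates 3 and 4. Of 75 nuclear oxidative phosphorylation genes, 1 rose (median 0.15); 31 were called higher and 2 lower within replicates 1 and 2 alone, and 1 higher within replicates 3 and 4 alone. Of 16 immediate early and AP-1 factors, 1 fell and 2 rose. The fall was the AP-1 factor Batf, from 26.5 ± 3.8 to 12.8 ± 0.994 CPM (-1.14, adjusted p = 0.0007). No member passed in the lists of mitochondrially encoded genes (13 tested), unfolded protein and heat shock response (17 tested) or Y RNA-binding proteins and their sensors (15 tested, median -0.01). Lists with at most 2 calls over all 8 libraries were complement and Fc receptors (2 of 18, lower), lysosomal genes (1 lower and 1 higher of 29), cell cycle (1 and 1 of 30) and macrophage markers (1 of 10, lower). Within replicates 1 and 2 alone they had more calls, with 18 lysosomal genes higher and 4 lower, as did all genes tested, with 1305 higher and 1609 lower of 10565. The 3 housekeeping genes of the study, Rab14, Arpc2 and Cltc, changed by -0.03, -0.03 and 0.03 (adjusted p = 0.9, 0.92 and 0.92). All 5 of its qPCR candidates, Mx1, Ifit1, Cxcl10, Ccl2 and Edn1, were lower DEGs, but as the study chose them on these samples this is not independent evidence of their direction.

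Several of these calls rested on single libraries or on 1 pair. Of the genes above, 18 lost their call in at least 1 of the 8 fits that left out a library, and all 18 did so without RNY1+/+ replicate 4. For Ccl5, Mxd4 (adjusted p = 0.05), Gas6 and Slc40a1 this was the only such fit. The call was also lost without RNY1-/- replicate 1 for Ifnar1, without RNY1+/+ replicate 1 or RNY1-/- replicate 1 for Jak2, without RNY1+/+ replicate 2 or RNY1-/- replicate 1 for Trem2, without RNY1+/+ replicate 3 or RNY1-/- replicate 1 for F13a1 and Pdk1, and without RNY1+/+ replicate 3 or RNY1-/- replicate 4 for Hmox1. Mrc1 lost it in 4 fits (also RNY1+/+ replicates 1 and 2 and RNY1-/- replicate 4). Ifit1, Ccl6 and Sting1 lost it in 5 (also replicates 1 and 2 of both groups), as did Nos2 (also RNY1+/+ replicates 1 and 2 and RNY1-/- replicates 2 and 4). Ifih1, Ndrg1 and H2-Eb1 lost it in 6, without any RNY1+/+ library or RNY1-/- replicate 1 or 2. Without RNY1-/- replicates 1 and 2 together, 14 genes lost the call: Ifih1, Jak2, Ccl6, Cxcl3, Sting1, F13a1, Ndrg1, Mxd4, Ptgs1, Gas6, Trem2, H2-Eb1, Pdk1 and Scd1, with adjusted p from 0.051 for Ptgs1 to 0.26 for Ndrg1. The log2 fold changes of F13a1 and Ndrg1 were then 0.95 and 0.55, and that of Cxcl3 -1.55. Without RNY1-/- replicates 3 and 4 together only Mrc1 did (0.37, adjusted p = 0.072).

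The donor genotype was also compared in EVFx, with 8 libraries that the ProteinFx comparison does not use, added at equal particle numbers and not equal protein. The difference between the genotype effects of the 2 fractions was tested as an interaction. Of 10442 genes tested, 1699 (16.3%) were called lower and 1754 (16.8%) higher in the ProteinFx effect than in the EVFx effect; with total counts in place of TMM the lower ones made up 26.3% of the calls and not 49.2%. Of the antiviral effectors 36 of 74 were called lower and 2 higher, with median log2 fold changes of -0.40 in ProteinFx and 0.06 in EVFx. The corresponding counts were 17 and 0 of 37 for NF-kB-dependent cytokines and enzymes (medians -1.14 and -0.31), 17 and 2 of 32 for NF-kB subunits and inhibitors (-0.40 and -0.10) and 5 and 2 of 16 for chemokines (-0.92 and -0.23). For ribosomal protein genes 56 of 76 were called higher and none lower (0.25 and -0.32). Interferon-γ-inducible GTPases had 3 lower and 0 higher of 18, near the share of all genes, and interferon and STAT signalling 3 and 5 of 19. Higher calls also outnumbered lower ones in oxidative phosphorylation (40 and 4 of 75), lysosomal genes (14 and 4 of 29) and glycolysis and hypoxia (10 and 0 of 23). Each median covers the members tested in that comparison. The calls were few without RNY1-/- ProteinFx replicates 1 and 2, at 350 genes, and within replicates 3 and 4 alone, at 78, compared with 4885 within replicates 1 and 2 alone.

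Single genes differed in how they behaved in EVFx. Rsad2, Clec4e and Sod2 had EVFx log2 fold changes of 0.20, -0.02 and -0.02, none called (adjusted p = 0.5, 0.89 and 0.86), and interactions of -1.59, -2.27 and -1.59 (adjusted p = 0.0028, 0.00019 and 0.00043). Ifit1 was higher in RNY1-/- EVFx (0.69, adjusted p = 0.004), with an interaction of -1.72 (adjusted p = 0.0038). Tnf, Socs3, Socs1 and Isg15, by contrast, were lower in RNY1-/- EVFx as well (-1.22, -1.07, -0.85 and -0.63, adjusted p = 0.0002, 0.0002, 0.0078 and 0.0061). Their interactions, -0.14, -0.49, -0.14 and -0.20, did not pass (adjusted p = 0.7, 0.18, 0.73 and 0.5). Il1b and Saa3 fell in EVFx too (-1.21 and -1.11, adjusted p = 0.00028 and 0.00025) and had called interactions of -1.54 and -1.11 (adjusted p = 0.043 and 0.013). The Il1b interaction was not called without RNY1-/- ProteinFx replicates 1 and 2 (adjusted p = 0.18) or 3 and 4 (0.084), with GC and length trends removed (0.086) or with total counts (0.064). Among the rises, Mrc1 was also higher in RNY1-/- EVFx (0.79, adjusted p = 0.00029), with an interaction of -0.03 (adjusted p = 0.94), while Gas6 was lower there (-0.40, adjusted p = 0.018). Of the DEGs, 110 lower and 41 higher ones were tested in EVFx, with median EVFx changes of -0.15 and 0.14. The medians in ProteinFx, over all 122 lower and 69 higher DEGs, were -1.37 and 1.24. Of the 110, 34 were called lower and 6 higher in EVFx, and of the 41, 10 were called higher and 4 lower. These EVFx calls were not set against the share of all genes called in EVFx. A called interaction was found in 91 of 119 lower and 41 of 55 higher DEGs. As the DEGs were chosen on the ProteinFx effect, which enters the interaction, these counts describe them and do not test them.

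**Figure D5:**
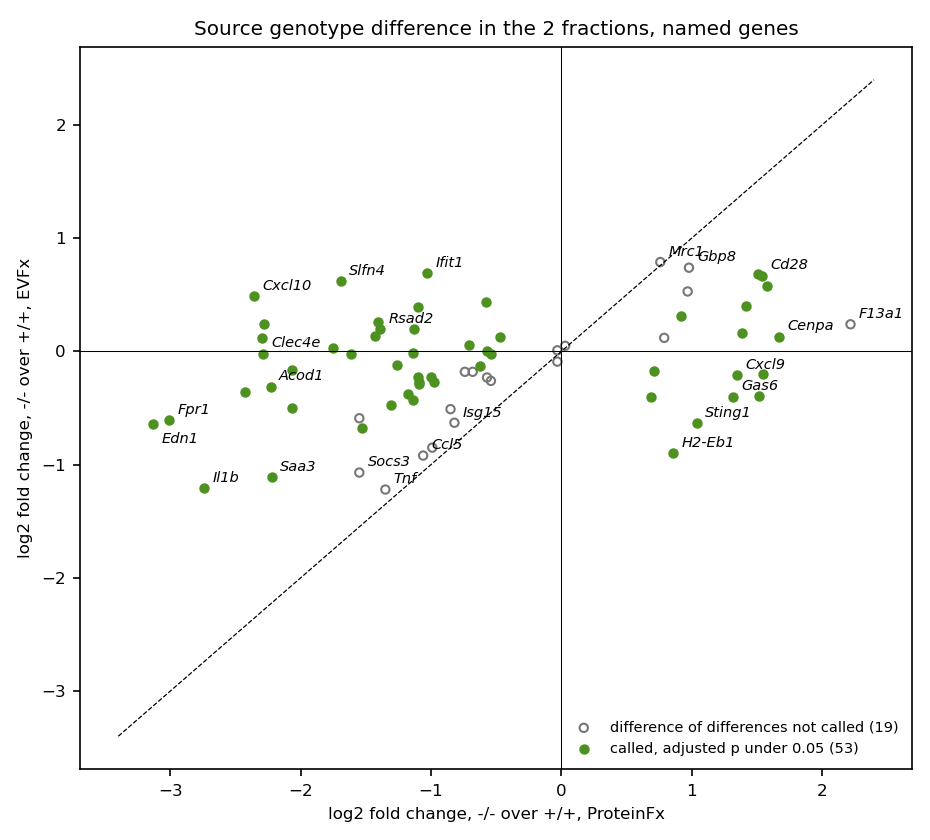
Log2 fold change of donor genotype (RNY1-/- minus RNY1+/+) in EVFx against that in ProteinFx for the named genes tested in both, coloured by whether the interaction passed an adjusted p of 0.05 (53 genes) or did not (19 genes). Genes such as Rsad2 and Clec4e lie near 0 in EVFx, whereas Tnf and Socs3 lie near the diagonal.

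Promoter entries matched 7435 of the 10469 genes tested. The ISRE core was present in 57.9% of the 57 antiviral effectors with an entry, against 4.2% of all tested genes with an entry and 3.44% of all 32851 promoters of this length in the reference table. It was present in 15.2% of the 264 matched genes lower by adjusted p and in 5.17% of the 174 higher. The kappa-B motif was present in 4 of 10 chemokine promoters and in 12.1% of the genes lower and 2.87% of the genes higher by adjusted p, against 6.05% of tested genes and 4.51% of all promoters. AP-1 was present in 12.9% and 10.9% of the lower and higher genes, against 6.28% of tested genes and 7.81% of all promoters. GAS was present in 12.5% and 6.32%, against 8.2% and 8.3%. The order differed in the DEGs, where AP-1 was the most frequent of the 4 motifs. Of the 87 lower DEGs with an entry, 17 held AP-1, and 10 each held ISRE, GAS and kappa-B. Of the 51 higher DEGs with an entry, 5 held AP-1, 4 GAS, 2 ISRE and 1 kappa-B. These shares and counts take any match in the window and were not tested. A gene with several promoter entries counted if any of them held the motif, whereas the shares of all promoters count single entries, so the measures are not alike.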

How the data were processed

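The libraries were 3′-end, polyadenylated RNA sequencing libraries with unique molecular identifiers, 4 per group, with library names that share a prefix. At the authors' sequencing service, reads were filtered with fastp 0.24.0, aligned with STAR 2.7.11, sorted with SAMtools 1.22.1, cleared of duplicates by molecular identifier and counted by strand on exons and 3′ UTRs with featureCounts (Subread 2.1.1). Reads mapping to several genes were shared as fractions, and the processing notes name GRCm39 as the build. The annotation release is not given in the sources used here. The deposited values are these counts, expected counts that the authors did not normalize, and their CPM, for which the authors divided each count by the library total.

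For the tests, 92 spike-in entries were left out and counts rounded to whole numbers. Genes that averaged 3 CPM or more over the 8 libraries and passed filterByExpr entered edgeR 4.0.16 (TMM scaling, glmQLFit, glmQLFTest), with Benjamini-Hochberg adjustment over all 10469 genes. DEGs had an adjusted p below 0.05 together with a log2 fold change beyond 1 in either direction. The interaction used 16 libraries. SE was derived as the log2 fold change divided by the root of the F statistic. Single values were compared by exact two-sided permutation, whose smallest p at 4 against 4 is 0.0286. With molecular identifiers counts stand for molecules, and the floor of 3 counts covers counting error only. Scripts were tested on simulated data. R 4.3.3, DESeq2 1.42.0, Python 3.11.15, pandas 2.3.3, scipy 1.17.1 and matplotlib 3.10.9 were also used.

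The members and gene lists were chosen with earlier results of these data known. Genes named were the 12 DEGs with the largest fall and the 12 with the largest rise, that averaged 10 CPM or more and had groups without overlap, list members, and the study's candidate, housekeeping and Y RNA genes. Same-numbered libraries of the 2 groups did not deviate together (r = 0.22, -0.26, -0.29 and 0.19), so the numbers were not taken as pairs. No 2 libraries of a group agreed within sampling noise (chi-square per gene from 2.57 to 15.7), so none was counted as a duplicate. Alternatives covered the test, scaling, filter, fold limit, GC content and length, multi-mapping reads, depth, libraries in the fit, a replicate block and leaving libraries out. Fits within replicates 1 and 2 or 3 and 4, or with that division as a block, were added after seeing the data. The EVFx libraries served only for the interaction, and qPCR values were not analysed here.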

Additional observations from a re-analysis of the deposited data

Results flagged for a closer look

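Outlying libraries were looked for among the named genes in PBS, RNY1+/+ ProteinFx and RNY1-/- ProteinFx by Dixon's test at the 95% limit for 4 samples, in 231 combinations of gene and group, of which 18 passed. Chance passes about 1 in 20 such groups. In 7 of the 18 the outlying library was RNY1+/+ ProteinFx replicate 4 as the highest of its group: Cxcl2 at 111 CPM, Il1b at 87.1 CPM, Il1a at 285 CPM, Tnf at 32.6 CPM, Acod1 at 867 CPM, Lox at 93.9 CPM and Plpp1 at 59 CPM. It was the lowest for Ccr2, at 3.82 CPM. All 8 genes had an adjusted p under 0.05 without this library too. In the other RNY1+/+ ProteinFx libraries, Ifih1 was lowest in replicate 3, at 320 CPM, and H2-Eb1 in replicate 2, at 6.59 CPM. The remaining 8 were in PBS, where replicate 2 was high for Cmpk2 (43.3 CPM), Socs1 (1.85 CPM) and Cxcl11 (0.154 CPM, under the floor of 3 counts). PBS replicate 3 was high for Ifnar1 (108 CPM), Mrc1 (968 CPM) and Klf4 (18.2 CPM), replicate 4 was high for Lox (2.49 CPM), and replicate 1 was low for Cxcl10 (2.66 CPM). No RNY1-/- ProteinFx library passed the limit for a named gene.

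The genotype effect differed between ProteinFx and EVFx, by the interaction at an adjusted p under 0.05 over all genes, in 55 named genes. As they were named for their ProteinFx effect, the count is a description. The differences below are the log2 fold change in ProteinFx minus that in EVFx. Among interferon-stimulated genes and their signalling they were -2.31 for Slfn4, -1.72 for Ifit1, -1.67 for Cmpk2, -1.59 for Rsad2, -1.15 for Mx1, -1.03 for Ifih1, -0.82 for Usp18, -0.79 for Gbp5, -0.77 for Mx2, -0.60 for Ifnar1, -0.57 for Rigi and -0.53 for Jak2. Chemokine genes had differences of -2.85 for Cxcl10, -2.56 for Cxcl3, -1.33 for Ccl2, -0.87 for Ccl4 and -0.81 for Ccl3, against 1.55 for Cxcl9 and 1.09 for Ccl6. For cytokines, enzymes and secreted factors the values were -2.50 for Edn1, -1.94 for Lox, -1.92 for Acod1, -1.76 for Nos2, -1.59 for Sod2, -1.58 for Il1a, -1.54 for Il1b, -1.11 for Saa3 and -0.85 for Il1rn. Receptors, regulators and lipid genes had differences of -2.78 for Olr1, -2.45 for Plpp1, -2.41 for Fpr1, -2.27 for Clec4e, -2.07 for Fpr2, -1.58 for Nfkbiz, -1.50 for Tnfaip3, -1.14 for Scd1, -0.84 for Irak3, -0.77 for Tlr1, -0.72 for Batf, -0.71 for Nfkbia and -0.49 for Cyp51. Positive differences were found for Mxd4 (1.92), H2-Eb1 (1.76), Ndrg1 (1.75), Gas6 (1.73), Sting1 (1.67), Clec10a (1.56), Cenpa (1.54), Slc46a3 (1.23), St6gal1 (1.02), Tcp11l2 (0.99), Cd28 (0.88), Trem2 (0.88), Gpr155 (0.82) and Klf4 (0.60). Of the 55, 28 passed without RNY1-/- ProteinFx replicates 1 and 2, 50 without replicates 3 and 4, and 44 with GC and length trends removed.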

How the results depend on the processing

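None of the 74 called genes followed through the alternatives changed direction under an alternative. Of these, 18 lost the call in at least 1 fit that left out a library, all 18 of them without RNY1+/+ replicate 4. Calls were also lost by 7 genes with the replicate block, 10 within replicates 3 and 4 alone and 3 with scaling to housekeeping genes. DESeq2 and thinning lost 2 each, and GC removal with the block 1. Total DEGs (191) and genes by adjusted p (583) stayed within 1.5 times under DESeq2 (199 and 700), total counts (200 and 662), scaling to housekeeping genes (181 and 466), the edgeR filter alone (207 and 588), thinning (162 and 468), without RNY1-/- replicates 1 and 2 (180 and 869) and GC removal with the block (195 and 656). They moved with no filter (326, 189 lower and 137 higher, and 946), with only genes of whole counts (121, 70 lower, and 336), and in genes by adjusted p with GC and length trends removed (890). A log2 limit of 0.5 gave 519 DEGs (308 and 211), 1.5 gave 63 (46 and 17), and glmTreat against 0.5 gave 105 (22 higher). Without RNY1-/- replicates 3 and 4 there were 406 (253 and 153, 2905 by adjusted p), and within replicates 1 and 2 alone 444 (280 and 164, 2914 by adjusted p). Leaving out 1 library gave 115 to 249 DEGs, 84 to 153 lower and 31 to 96 higher, and 230 to 881 by adjusted p. The lowest counts came without RNY1+/+ replicate 4 and the highest without RNY1-/- replicate 3; by adjusted p, there were 381 calls without RNY1+/+ replicate 1 and 343 without RNY1-/- replicate 1. Lower DEGs were 5 of the antiviral effectors with total counts. With whole counts, where 5473 genes were tested and not 10469, they were 2 antiviral effectors, 10 NF-kB-dependent genes and 5 chemokines. The causes of the changes under these alternatives were not tested.

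With the replicate number as a block, 367 genes passed the adjusted p and 173 were DEGs; the numbers do not pair the libraries.

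Interaction calls (3453) were 2173 with GC and length trends removed, 1392 with whole counts only, 2038 with all 20 libraries, 1820 after thinning, 350 and 5664 without RNY1-/- ProteinFx replicates 1 and 2 or 3 and 4, 78 within replicates 3 and 4 alone, and 1917 to 4628 with 1 library left out. With 1 library left out, the lowest came without RNY1-/- ProteinFx replicate 1 (2144) or 2 (1917), or RNY1+/+ EVFx replicate 4 (2293). The smallest library, at 2510005 counts, limits genes near 3 CPM, where its floor is 1.2 CPM.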

Other observations

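Across the series, some genes differed between replicates 1 and 2 and replicates 3 and 4 in ways that the labels do not name. Of 7551 genes averaging 10 CPM or more over the 20 libraries, 43 were above and 52 below in replicates 1 and 2 against 3 and 4 in all 5 groups. F13a1 stood at 56, 49.7, 24.1 and 23.1 CPM in PBS replicates 1 to 4 and at 11.9, 11.7, 2.76 and 3.82 CPM in RNY1+/+ ProteinFx. The 95 genes included 12 that passed the adjusted p in the ProteinFx comparison, 4 of them DEGs (Jag1, Pcdh7, Dcbld2 and F13a1, named after their values were seen). With this division as a block in the fit, 121 of the 122 lower and 69 of the 69 higher DEGs passed an adjusted p of 0.05, and the DEGs numbered 126 lower and 73 higher. The block fit used the same 8 libraries that chose the DEGs, so the pass counts describe them and are not a replication. Over all genes tested the ProteinFx groups did not share this division, as RNY1+/+ replicates 2 and 3 deviated with the other RNY1-/- pair. The block therefore does not join libraries that were alike over all genes.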
